A study of Homo sapiens with 12 samples.

Results

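Nuclear pore complex genes were examined for accessible chromatin in HT1080 cells. The set was a list of 31 nucleoporin genes, all of which were found in the RefSeq gene table among 20037 protein-coding genes. A deposited peak summit was assigned to a gene when it lay inside the gene or within 1000 bp of either of its ends. This gave 152 of the 188019 summits in the deposited list, in 138 intervals. Accessibility was measured by ATAC-seq: a transposase inserts adapters where DNA is not packed away, and many fragments over a site mean that it was open in many cells or copies. HT1080 is an established human fibrosarcoma line. Its cells had migrated for 48 h in rat tail type-I collagen at 0.3 mg/mL (low), 1.0 mg/mL (medium) or 1.7 mg/mL (high), with 4 libraries each and 12 in all. Every group also received the metalloproteinase inhibitor GM6001 at 20 µM, and all cells were released with collagenase and frozen before the assay, so none of the 3 groups lacks these steps. The series has a single cell line, and the list analysed here is taken as pooled over the libraries, because all its peak names start with the word all. No column gives a library or a concentration, so nothing below compares concentrations, there are no replicates, and the depth of each library is unknown.

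The nuclear pore complex is the channel through which proteins and RNA cross the nuclear envelope. It is built of stacked rings: an outer ring on either face, an inner ring that lines the membrane, and a membrane ring that anchors the assembly. Filaments reach into the cytoplasm, a basket hangs into the nucleus, and nucleoporins rich in phenylalanine and glycine (FG) repeats fill the channel and bind the transport receptors. In migrating cells the pore sits in the envelope that is deformed when a nucleus is squeezed, next to the lamina and the LINC complex.

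Nearly all pore genes had an accessible end. A summit lay within 1000 bp of an end in 30 of 31 genes (96.8%, 95% Wilson interval 83.8 to 99.4), beside 65.7% of all protein-coding genes. NUP210 was the member without one. All 31 had a summit near an end or inside the gene, beside 82.5% of coding genes, but pore genes were also longer, with a median length of 59398 bp against 24115 bp. Of the 30 members whose start site was listed, 29 had a summit within 1000 bp of a start site, beside 67.6% of coding genes. The start site of NUP43 was not listed. No test was made of these shares. The list is fixed and holds copies such as POM121 and POM121C. Wilson intervals here and below treat genes or windows as independent, so they serve as description only.

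The strength of each site was read from the authors' fold enrichment, the signal at the summit over the local background of the peak caller. The highest enrichment near an end had a median of 14.1 over the 30 members, with quartiles of 11.8 and 15.8. Over all 13157 coding genes with such a summit the median was 11.7, with quartiles of 6.77 and 14.7. The members ranged from 2.63 at NUP210L to 17.97 at RANBP2. Above the coding median lay 22 members and below it 8, and 12 lay above the third coding quartile. The fragment pileup is the number of overlapping fragments at the summit, recovered from the enrichment and its −log10 p. Its median was 1235.5 fragments for the members and 745 for the coding genes, and 24 members lay above the latter. Enrichment and pileup can part where the local background differs. NUP37 and NUP98 had enrichments of 16.6 and 16.4 with pileups of 963 and 4739, over backgrounds of 57.1 and 287 fragments. An order by enrichment is therefore not an order by amount of signal. The counting error of a pileup leaves most neighbours in the order unresolved. In the order of enrichment, 27 of 29 neighbouring pairs had overlapping 95% Poisson intervals, and 21 of 29 did in the order of pileup. These intervals cover counting error only, since fragments copied by PCR are not independent.

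**Figure D1:**
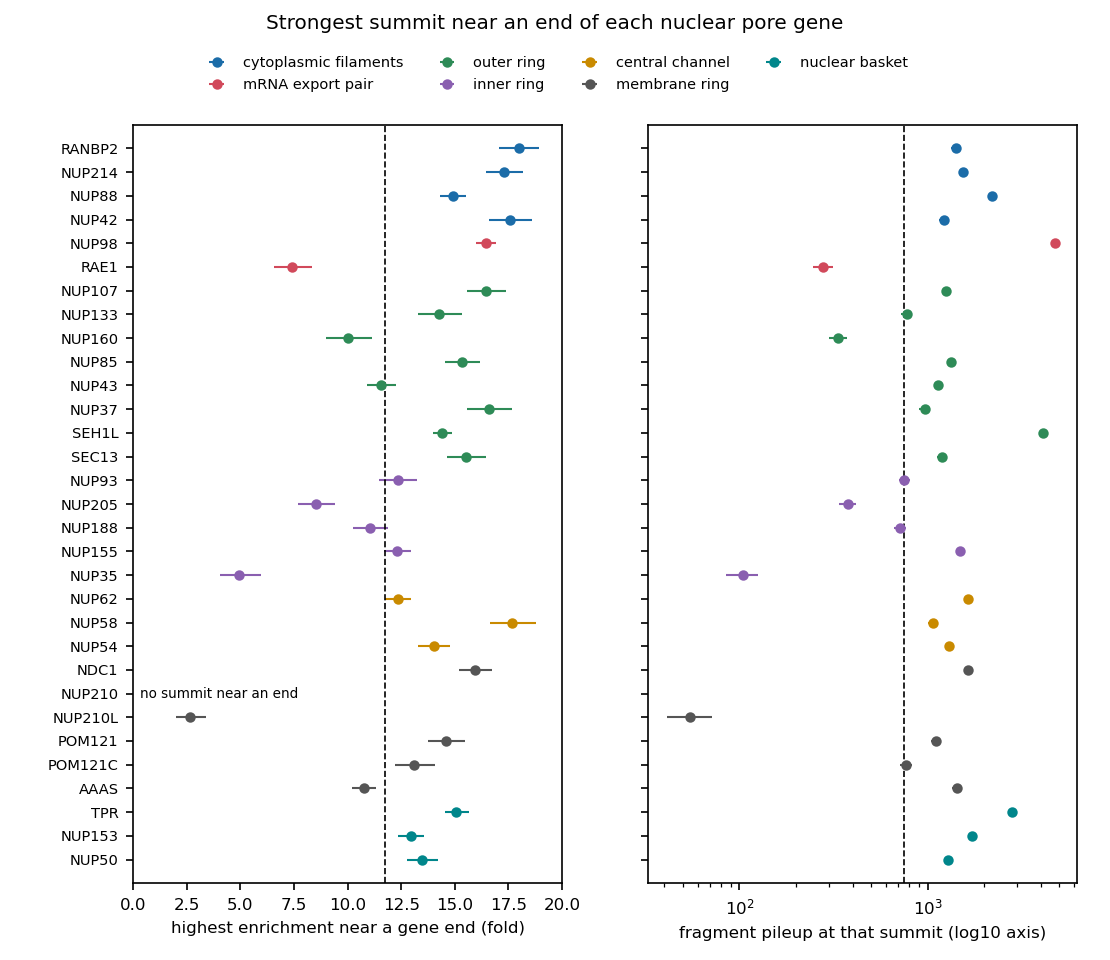
Highest enrichment within 1000 bp of a gene end (left, fold) and the fragment pileup at that summit (right, log10 axis) for each nuclear pore gene, coloured by substructure; bars are 95% Poisson intervals of the pileup, on the left at a fixed background, and dashed lines are the medians of all coding genes, 11.7 and 745. The filament genes RANBP2, NUP214 and NUP42 lie above 17, NUP98 and SEH1L have the highest pileups, and NUP210L has the lowest of both.

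**Figure D2:**
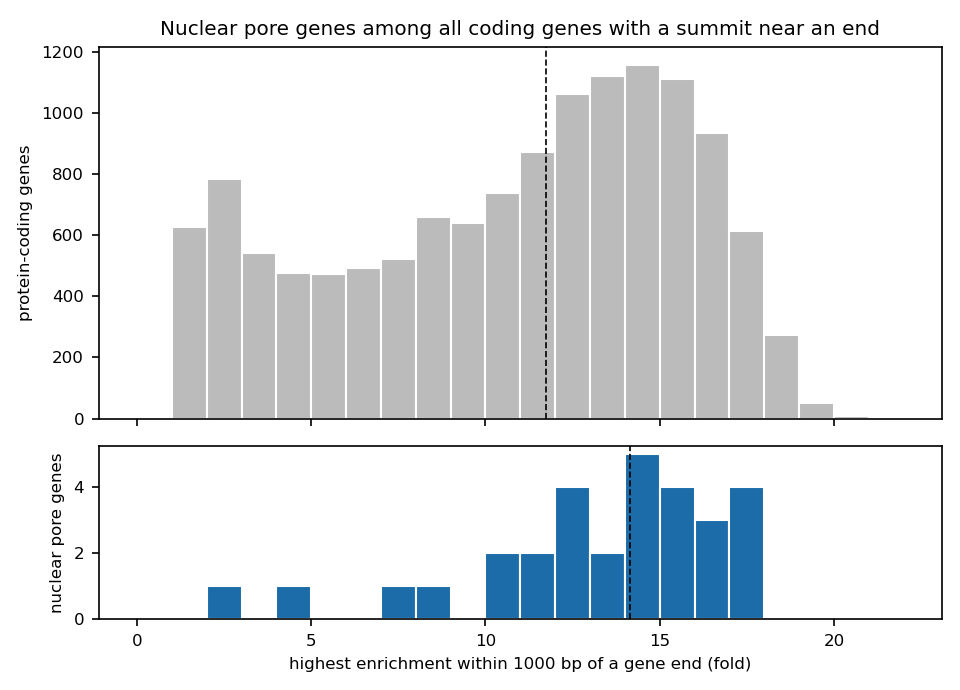
Number of genes by highest enrichment within 1000 bp of a gene end, in bins of 1 fold, for all coding genes with such a summit (top) and the 30 nuclear pore genes (bottom); dashed lines are the medians, 11.7 and 14.1. Of the 30 pore genes, 22 lie above the coding median and 8 below it.

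The summits sat close to transcription start. The strongest summit at a start site lay within 300 bp of it in 27 of 29 members (93.1%, beside 85.8% of coding genes with a summit at a start site), 19 of them upstream, 1 at the site itself and 7 downstream. The median distance was 84 bp, and the farthest was 417 bp, upstream of NUP62. At the other extreme was NUP35, with a summit exactly at its listed start site. The first end is the edge of the gene interval on the side where transcription begins. It had a summit in 28 of 30 members with a known strand (93.3%, beside 63.7% of coding genes). The last end had one in 7 (23.3%, beside 12.2%). NUP35 counts here as without a summit at its first end, although its start site summit lies 6929 bp inside the interval. To show what these sites look like, the 250 bases before the start site follow for the 2 highest and the 2 lowest members by end enrichment among those whose RefSeq promoter window holds a summit, and for NUP210 and NUP210L, which were added after their values were seen. NUP35 entered through its weak summit past the last end; in their windows NUP205, NUP160 and NUP188 had weaker summits than NUP35. RefSeq sequences are of GRCh38.p14, run 5′ to 3′ in the direction of the gene, and carry in capitals the matches to the motifs named further on.

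RANBP2 (chr2:108719232-108719481, plus strand): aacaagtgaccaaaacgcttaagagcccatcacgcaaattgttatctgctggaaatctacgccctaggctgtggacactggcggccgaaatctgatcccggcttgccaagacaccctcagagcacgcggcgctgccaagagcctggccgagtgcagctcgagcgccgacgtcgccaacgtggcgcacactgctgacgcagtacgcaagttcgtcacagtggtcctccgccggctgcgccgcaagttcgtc

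NUP58 (chr13:25301375-25301624, plus strand): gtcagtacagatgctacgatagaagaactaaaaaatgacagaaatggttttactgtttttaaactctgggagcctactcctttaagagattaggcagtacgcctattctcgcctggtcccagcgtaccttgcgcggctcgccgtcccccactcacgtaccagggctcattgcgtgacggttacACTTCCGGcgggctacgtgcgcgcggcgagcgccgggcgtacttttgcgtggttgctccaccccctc

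NUP35 (chr2:183124193-183124442, plus strand): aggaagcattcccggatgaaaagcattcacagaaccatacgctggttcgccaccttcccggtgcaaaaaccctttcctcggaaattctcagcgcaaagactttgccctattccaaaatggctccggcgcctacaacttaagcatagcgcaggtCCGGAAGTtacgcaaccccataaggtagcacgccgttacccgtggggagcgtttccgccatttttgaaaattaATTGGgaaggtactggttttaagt

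RAE1 (chr20:57351292-57351541, plus strand): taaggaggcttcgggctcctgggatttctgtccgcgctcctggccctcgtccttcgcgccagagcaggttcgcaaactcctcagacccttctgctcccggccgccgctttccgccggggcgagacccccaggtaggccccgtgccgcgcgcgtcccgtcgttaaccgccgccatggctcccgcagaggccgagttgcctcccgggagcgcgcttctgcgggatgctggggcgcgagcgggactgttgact

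NUP210 (chr3:13420323-13420572, minus strand): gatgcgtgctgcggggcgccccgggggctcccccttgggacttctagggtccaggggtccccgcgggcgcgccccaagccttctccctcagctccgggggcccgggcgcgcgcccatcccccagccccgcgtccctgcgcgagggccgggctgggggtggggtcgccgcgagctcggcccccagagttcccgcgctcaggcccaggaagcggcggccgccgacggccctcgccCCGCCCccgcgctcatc

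NUP210L (chr1:154155117-154155366, minus strand): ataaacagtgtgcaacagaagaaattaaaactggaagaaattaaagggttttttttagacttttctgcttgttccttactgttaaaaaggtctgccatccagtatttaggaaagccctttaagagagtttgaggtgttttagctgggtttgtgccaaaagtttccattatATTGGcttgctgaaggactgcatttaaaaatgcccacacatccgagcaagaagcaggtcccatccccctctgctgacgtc

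In this set RANBP2 and NUP58 had enrichments of 17.97 and 17.7, with summits 27 bp after and 28 bp before the start site. The NUP35 summit at its start site had 11.4, and the RAE1 summit, 245 bp upstream of its listed start, had 7.42. The windows of NUP210 and NUP210L held no summit. The 300-base RefSeq window of NUP210 had the highest G+C content of the 39 member windows, 81.3%, with 42 CpG dinucleotides. The 2 windows of NUP210L had 44% and 49.3%, with 5 and 9 CpG. All 39 member windows had a median G+C of 63.3% and a median ratio of observed to expected CpG of 0.851, beside 62.3% and 0.737 for 22199 windows of coding genes. The RANBP2 window, with the strongest summit, had 31 CpG at a G+C content of 62%.

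**Figure D3:**
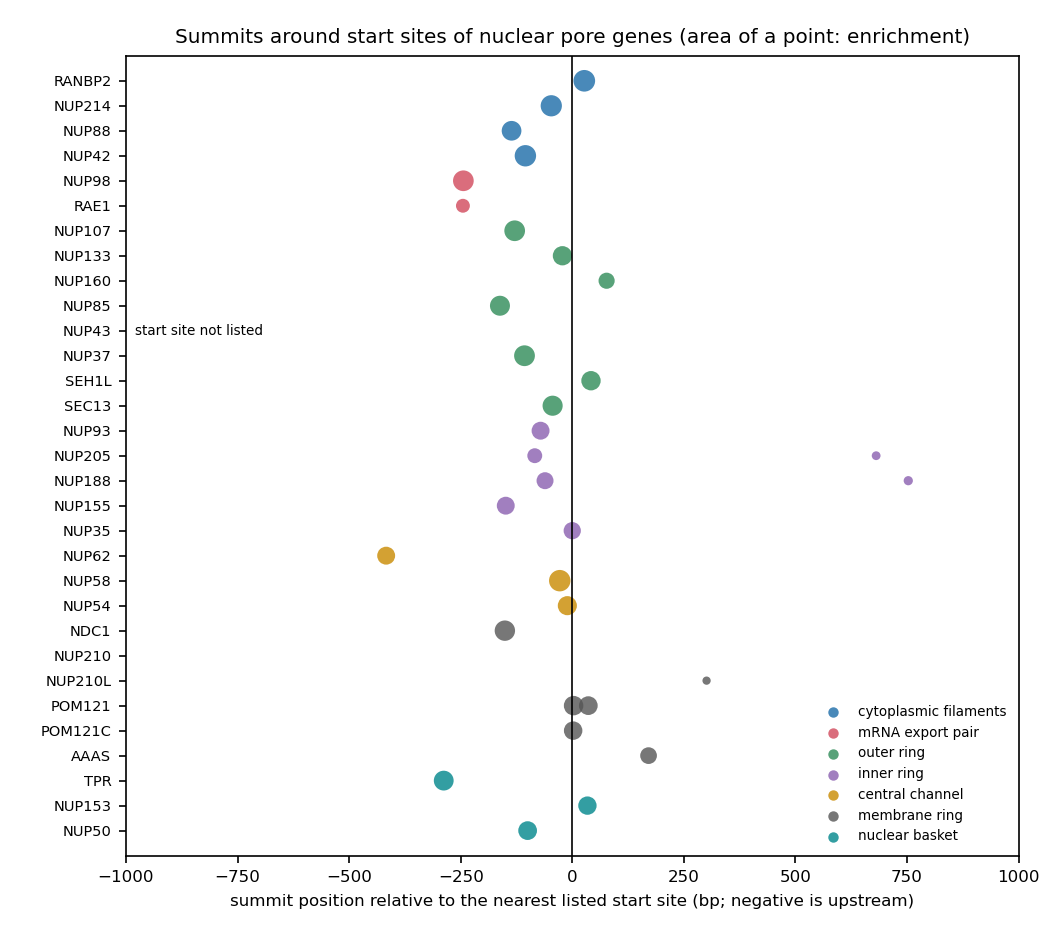
Position of each summit within 1000 bp of a listed start site (bp, negative is upstream; rows are genes, point area is proportional to enrichment). Most points lie between 300 bp upstream and 100 bp downstream; NUP62 is at -417 bp, NUP205 and NUP188 have a further weak summit at 681 and 753 bp, and NUP210 has none.

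The cytoplasmic filament genes had the highest median enrichment of the 7 substructures, 17.4. By median pileup they had 1476.5 fragments, below the mRNA export pair (2509) and the nuclear basket (1730). The filament proteins receive cargo complexes leaving the pore. RANBP2, the largest of the filament proteins and a SUMO ligase that binds RanGAP1, had an enrichment of 17.97 (95% interval 17.0 to 18.9) and a pileup of 1407 on chromosome 2, 108719264 to 108720144. NUP42, a docking site for mRNA export factors, had 17.6 and 1216 fragments. NUP214, which binds the exportin CRM1 and is known from leukaemic fusions, had 17.3 and 1546 fragments. NUP88, its partner, had 14.9 with 2209 fragments, over a background of 147 fragments against 68.2 to 88.4 at the other 3. Its enrichment was the lowest of the group and its pileup the highest. The summit also lay 384 bp from the start site of RPAIN, an importer of replication protein A, on the opposite strand.

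NUP98 and RAE1, which act together in mRNA export, stood far apart. NUP98, a mobile FG nucleoporin whose transcript also encodes the outer ring protein NUP96, had an enrichment of 16.4 (95% interval 16.0 to 16.9) and a pileup of 4739 fragments (4605 to 4876). This was the highest pileup of the members and stood at percentile 99.6 of coding genes. The interval on chromosome 11, 3797252 to 3798141, held the start of PGAP2, a gene of GPI anchor remodelling, 21 bp from the summit on the opposite strand. RAE1 had an enrichment of 7.42 (6.57 to 8.34) and 279 fragments in the interval on chromosome 20, 57350962 to 57351768. Near gene ends, only NUP35 and NUP210L were lower in both measures; at its listed start site NUP35 was above RAE1, with 11.4 and 473 fragments. Inside RAE1 a further summit, 10183 bp after its start, had 7.94 and 256 fragments, which lies within the counting interval of the site at the start (247 to 314).

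The outer ring, or Y complex, is the scaffold on both faces of the pore. All 8 genes had an accessible end, with enrichments from 10.0 to 16.6 and a median of 14.9. NUP37 had 16.6 (963 fragments), NUP107 16.4 (1255), SEC13 15.5 (1186), NUP85 15.3 (1334), SEH1L 14.4 (4112) and NUP133 14.3 (773). SEH1L had the second highest pileup of the members and no other gene with an end within 1000 bp of its summit. SEC13 and SEH1L are beta-propeller proteins that also serve outside the pore, SEC13 in COPII vesicle coats and both in the GATOR2 complex. NUP43 had 11.6 (1141 fragments), at a summit 13 bp from the start of PCMT1, a protein repair methyltransferase. NUP160 was lowest with 10.0 (334 fragments, 95% interval 299 to 372), below each of the other 7 in both measures.

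The inner ring, which joins the membrane coat to the central channel, had the lowest median enrichment near gene ends, 11.0. Its median pileup there, 716 fragments, was also the lowest. NUP93, the organiser of this ring, had 12.3 (753 fragments) and NUP155 12.3 (1488). NUP188 and NUP205, large related scaffold proteins, had 11.0 (716) and 8.51 (376), and each had a weaker summit in the same interval, 753 and 681 bp after the start, with 3.27 and 2.97. NUP35, which binds membranes, had 4.92 and 104 fragments at its highest summit near a gene end, 881 bp past its last end. Its listed start site lies inside the gene interval of the table, and there the enrichment was 11.4 with 473 fragments. LOC124907917 also has a start within 1000 bp of that summit. A count by gene ends therefore misses the stronger site of NUP35. With that value in place, all 5 inner ring genes were between 8.51 and 12.3 at their start sites.

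The central channel genes form the FG barrier. NUP58 had an enrichment of 17.7 (95% interval 16.6 to 18.8, 1062 fragments), NUP54 14.02 (1305) and NUP62 12.4 (1639). The order by pileup was the reverse of the order by enrichment, and the local background was 59.2, 92.2 and 132 fragments. The interval of NUP62 lay on chromosome 19, 49928933 to 49930176, and its summit at 417 bp upstream of the start site was the farthest of the members. IL4I1, an amino acid oxidase gene, has a listed start site on the same strand and at the same position as that of NUP62.

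The membrane ring was the most uneven group. NDC1, a transmembrane protein needed for pore assembly, had 15.9 (1646 fragments). AAAS, whose product ALADIN is held at the pore by NDC1, had 10.7 (1425). The near-identical genes POM121 and POM121C had 14.6 (1112) and 13.1 (770). NUP210 and NUP210L encode large proteins of the perinuclear space. NUP210, which is known to be induced when myoblasts and neural progenitors differentiate, had no summit near an end. Its 2 summits lay 80520 and 82062 bp after the start with enrichments of 1.87 and 1.64, pileups of 41 and 36 and −log10 q of 2.72 and 1.33. NUP210L, known from testis, had 2.63 (1.99 to 3.40) with 55 fragments, 301 bp after its start and within 1000 bp of an end of TPM3, a tropomyosin gene. Its 4 summits elsewhere in the gene had enrichments of at most 2.398. All other members had at least 7.42 at a start site, except NUP43, whose strand is not listed.

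The nuclear basket genes had pileups of 1289 to 2806 fragments, all above the coding median of 745. TPR, the scaffold of the basket, had an enrichment of 15.1 and 2806 fragments (95% interval 2703 to 2912), the third highest pileup of the members. NUP50, which helps release cargo from importin alpha, had 13.5 (1289), and NUP153, which anchors the basket, had 13.0 (1730). The TPR summit lay 288 bp upstream of its start and 297 bp from the start of ODR4 on the opposite strand. A lncRNA start on the opposite strand lay within 1000 bp of the other summits, 44 bp away at NUP50 and 152 bp at NUP153.

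At 11 of the 29 members with a known strand and an end summit, the strongest end summit had the start site of another gene on the opposite strand within 1000 bp (37.9%, beside 30.8% of coding genes counted the same way). Their median pileup was 1289 fragments, beside 1201 for the other 18. The partner was protein-coding at 5: PARPBP at NUP37, DOLK at NUP188, RPAIN at NUP88, PGAP2 at NUP98 and ODR4 at TPR (17.2%, beside 17.7% of coding genes). These 5 had a median pileup of 2209 fragments (716 to 4739), and the other 24 had 1235.5 (55 to 4112), so the ranges overlap. Median enrichments were 15.1 and 13.7. Fragments at such a site cannot be assigned to either gene from the list, and the part of the neighbour in each value was not tested.

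Accessible sites inside the genes were mostly weaker than those near ends. Besides 39 summits near ends, with a median enrichment of 13.0, the genes held 113 summits more than 1000 bp from either end. Their median enrichment was 3.47 and their median pileup 105 fragments. Over all 188019 summits of the list these medians were 4.27 and 101 fragments. The 113 inside summits lay in 25 of 31 genes, and 57 of them were in RANBP2. Shares over all coding genes are not given for sites inside genes. Pore genes were also longer than coding genes (median 59398 bp against 24115 bp), so these counts are not read as a trait of pore genes. The gene table gives RANBP2 a span of 1122820 bp, which contains 5 other coding genes (CCDC138, EDAR, SH3RF3, SEPTIN10 and SOWAHC). Of the 57 summits, 37 lay in or within 1000 bp of those genes. RGPD5, which is not among these 5, also held inside summits, one of 11.3 at its start and one of 11.4. In all, 3 RANBP2 summits lay before the first other coding gene, which began 67268 bp from the RANBP2 start. The last of these 3, at 67248 bp, lay beside that gene. The strongest inside summit, 16.6, was at the start of CCDC138. Leaving out RANBP2, the other 30 genes had 94 summits in all. Their 56 inside summits had medians of 3.33 for enrichment and 79.5 fragments for pileup. NUP37, NUP54, NUP58, AAAS and TPR had no summit apart from the one at their start.

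Outside RANBP2, NUP35, POM121 and POM121C, 7 summits inside pore genes had an enrichment of at least 9, each with a smaller pileup than at the start of its gene. In NUP98, a summit 74337 bp after the start had an enrichment of 14.5 (95% interval 13.2 to 16.0) with 424 fragments, beside 4739 at its start, on chromosome 11 from 3722964 to 3723525. In NUP214, a summit on chromosome 9 from 131178203 to 131178688 had 11.5 with 362 fragments, beside 1546 at its start, and lay 52884 bp into the gene, between its 2 listed start sites. Inside summits of 9.39 to 9.91 were present in NDC1, NUP188, NUP107 and NUP160, and one of 9.004 in NUP88, below the coding median of 11.7 for gene ends. Their pileups were 191 to 270, beside 334 to 2209 at the starts of the same genes. No other gene in the table had an end within 1000 bp of any of these 7 summits. At NUP160 the enrichment intervals of the inside summit (9.39, 8.18 to 10.7) and the start (10.0, 8.97 to 11.1) overlapped, while the pileups, 213 (185 to 244) and 334 (299 to 372), did not. At last ends, NUP107 had a summit of 13.1 that lay within 1000 bp of the start of SLC35E3, and NUP133 and NUP98 had 9.48 and 8.43 with no such neighbour. Exons and introns were not used here, so these sites are placed only by distance.

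**Figure D4:**
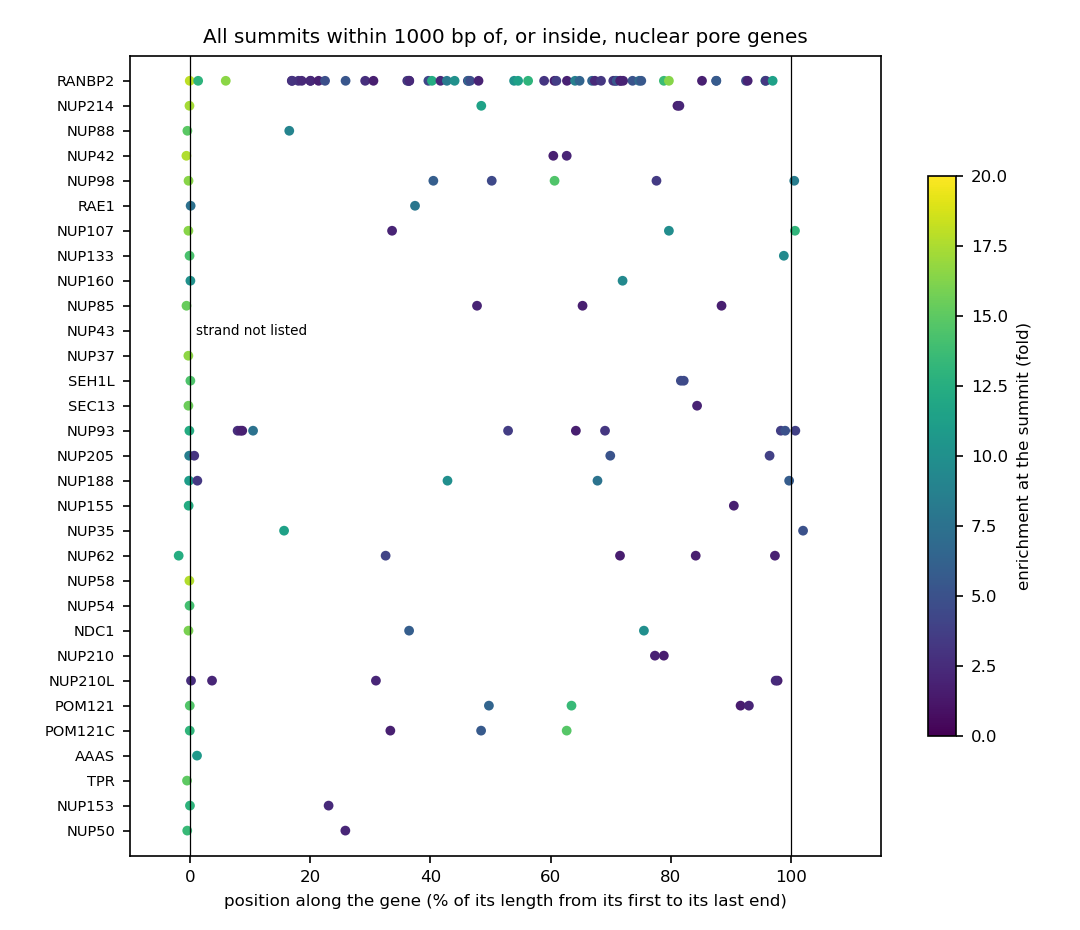
All summits of the 30 nuclear pore genes with a known strand along the gene (0 is the first end, 100 the last end, in % of gene length), coloured by enrichment (fold). Most bright points lie near 0; among those further along are NUP214 (11.5), NUP98 (14.5), POM121 (13.5), POM121C (14.7), NUP35 (11.4), NUP107 at its last end (13.1), and several in the long span of RANBP2, which covers other genes.

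POM121 and POM121C are copies on chromosome 7, and their accessible sites ran in parallel. Each had 3 summits with an enrichment of at least 5, a limit chosen after the values were seen. They had 14.6 and 13.1 at the start, 6.45 and 5.57 further in, and 13.5 and 14.7 at the innermost site. The last 2 sites were 9902 bp apart in POM121 and 9893 bp in POM121C. The middle site lay 35872 bp from the first end in POM121 and 33681 bp in POM121C, so that distance matched less closely. In POM121 the innermost site, 45774 bp from the first end, lay 36 bp after an inner start site. In POM121C the corresponding summit was 43574 bp from the start, where the table lists no start site. The RefSeq start windows were alike in 273 positions of the alignment, with 13 mismatches and 28 gap positions (86.9% identity). The 250 bases before each start are shown because their likeness bears on how reads of the copies can be placed.

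POM121 (chr7:72879107-72879356, plus strand): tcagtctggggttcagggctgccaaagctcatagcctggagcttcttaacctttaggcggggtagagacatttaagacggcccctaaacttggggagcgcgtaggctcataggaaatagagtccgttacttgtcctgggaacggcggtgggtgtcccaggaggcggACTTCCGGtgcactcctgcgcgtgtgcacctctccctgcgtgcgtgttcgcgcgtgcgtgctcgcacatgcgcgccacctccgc

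POM121 inner start site (chr7:72924845-72925094, plus strand): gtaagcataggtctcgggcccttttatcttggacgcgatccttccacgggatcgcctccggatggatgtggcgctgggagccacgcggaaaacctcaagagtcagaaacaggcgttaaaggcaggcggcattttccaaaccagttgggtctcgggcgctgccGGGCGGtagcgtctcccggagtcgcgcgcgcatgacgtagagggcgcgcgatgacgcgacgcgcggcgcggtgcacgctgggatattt

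POM121C (chr7:75486300-75486549, minus strand): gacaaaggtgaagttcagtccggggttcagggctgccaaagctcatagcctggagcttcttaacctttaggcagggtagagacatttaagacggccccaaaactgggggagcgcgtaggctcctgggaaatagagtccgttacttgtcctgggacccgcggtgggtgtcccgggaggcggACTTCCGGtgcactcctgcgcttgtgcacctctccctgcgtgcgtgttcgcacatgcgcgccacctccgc

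Both first start regions carry the ETS match, and the inner one of POM121 carries an SP/KLF match. Pileups at the start were 1112 (1048 to 1179) and 770 (717 to 826), which differ beyond counting error. Those at the innermost sites were 988 (927 to 1052) and 933 (874 to 995), which overlap. How reads that fit both copies were placed is not given in the sources used here, so the levels of the copies cannot be told apart with certainty.

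Promoter windows of pore genes were searched for 8 motifs on both strands, from 250 bases before to 50 after each start site. No motif contains another. An ETS motif (CCGGAAGT) was present in 8 of 39 windows (20.5%, 95% Wilson interval 10.8 to 35.5), beside 5.34% of coding windows. By gene this was 7 of 30 (23.3%) beside 6.97%: NUP160, NUP35, NUP54, NUP58, SEC13, POM121 and POM121C. Windows of SEC13 overlap and the POM121 windows are copies, so the windows are not independent. A CRE motif (TGACGTCA) was present in 5 windows (12.8%) beside 2.26%, in NUP133, NUP214, NUP42 and NUP210L. A YY1 motif (AAGATGGC) was present in 10.3% beside 3.53%, and an NRF1 motif (GCATGCGC) in 7.69% beside 3.74%. The NF-Y motif (CCAAT) was present in 41.0% of windows beside 34.7%, but by gene in 12 of 30 (40%) beside 42.1%. The SP/KLF motif (GGGCGG) was present in 43.6% beside 56.3%, the E-box (CACGTG) in 5.13% beside 8.34% and the TATA box (TATAAA) in 2.56% beside 9.47%. RANBP2, RAE1, NUP153 and AAAS had none of the 8 motifs in their windows. A relation between motifs and enrichment was not tested. A match is a description of letters and does not show that a factor binds there.

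**Figure D5:**
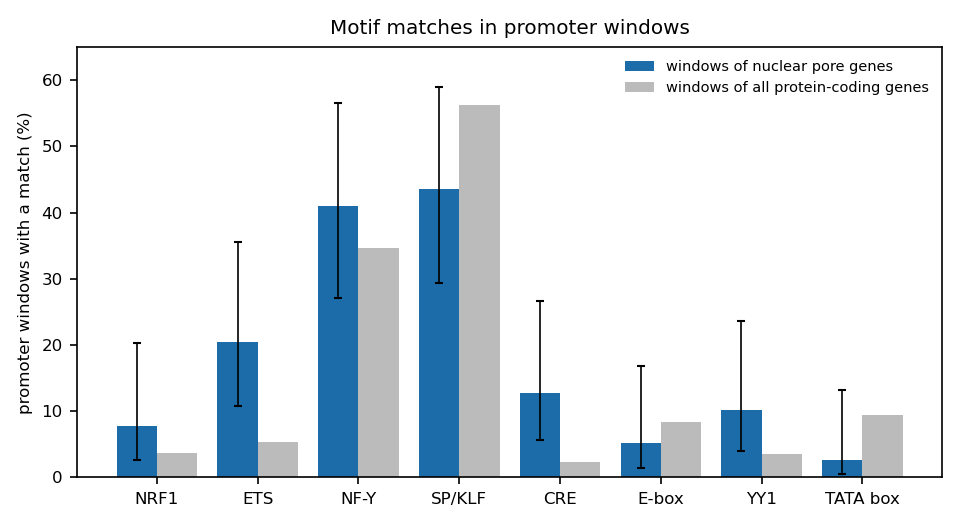
Share of promoter windows (%) with at least 1 match to each motif, for the 39 windows of nuclear pore genes (blue, with 95% Wilson intervals) and the 22199 windows of coding genes (grey). The blue bar is above the grey bar for NRF1, ETS, NF-Y, CRE and YY1 and below it for SP/KLF, the E-box and the TATA box; by gene NF-Y turns, with 40% beside 42.1%, and no test was made.

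Of 39 genes in a list of transport receptors, Ran cycle and mRNA export factors, 35 (89.7%, 95% Wilson interval 76.4 to 95.9) had a summit near an end, beside 65.7% of coding genes. By class these were 14 of 17 importins, 7 of 7 exportins, 5 of 6 Ran cycle genes, 8 of 8 mRNA export genes and AHCTF1, whose product ELYS seeds pore assembly on chromatin. The median of the highest enrichment was 13.9 for the list, with a median pileup of 1462. The highest were IPO11 with 17.9, XPO5 with 17.8 and ALYREF with 17.1, an importin, a microRNA precursor exportin and an mRNA export adaptor. The genes without an end summit were TNPO2, TNPO3, IPO5 and RANBP1, and each had a summit inside the gene, of 11.1, 13.3, 14.7 and 14.2. TNPO2 and TNPO3 had theirs within 1000 bp of a listed start site. The start site of RANBP1 was not listed, so its summit could not be placed this way. For IPO5 no value at a listed start site is given here.

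The label of the cells was checked on markers. All 7 mesenchymal markers (VIM, FN1, CDH2, ZEB1, TWIST1, PDGFRB and CD44) had a summit near an end, beside 65.7% of coding genes. Their enrichments were 3.70 to 15.1, with a median of 8.74, below the coding median of 11.7. Among the markers of epithelial, blood and endothelial cells reported here, EPCAM (2.11) and ESRP2 (3.92) had one, and CDH1, PTPRC, PECAM1 and CDH5 had none. The latter had summits inside the gene, from 9.41 in CDH5 to 16.0 in PECAM1. PDGFRB, with 3.70, was below ESRP2, so enrichment alone did not separate the markers by cell type.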

How the data were processed

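Open chromatin was measured by ATAC-seq in 12 libraries, and 1 peak list of the whole series, with 10 columns, was analysed. The submitters' processing notes name fastp 0.20.0, Bowtie2 2.4.3, SAMtools, deepTools 3.5.0, MACS2 2.2.7.1 and hg38, without role or order. Filters, duplicates and controls are not given in the sources used here. Per the column layout, the deposited values are a score, a fold enrichment (ratio) at the summit, and p and q on the −log10 scale. The lowest deposited −log10 q was 1.30. They are the authors' values, and no column is of a library, so no comparison between concentrations was fitted.

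The pileup and local background were solved from the deposited enrichment and −log10 p, taking enrichment as (pileup + 1)/(background + 1) and p as a Poisson upper tail. No label states this model. The pileup was whole within 0.05 in 99.96% of 188019 lines, and the recovery was tested on simulated data. The lowest background was 20.3 fragments. Gene ends came from RefSeq GRCh38.p14; start sites, strand and promoter sequences came from its promoter table, which held 30 of 31 members (39 windows). Scripts used Python 3.11.15, pandas 2.3.3, NumPy 2.4.6, SciPy 1.17.1, Biopython 1.88 (global alignment) and matplotlib 3.10.9. All members were named, with the 3 strongest transport genes, those without an end summit, and genes sharing a member's strongest end summit. Promoters shown were those of the 2 members with the highest and the 2 with the lowest end enrichment among those with a summit in the window, and of POM121 and POM121C. Those of NUP210 and NUP210L were added after their values were seen. The members and lists were chosen with earlier results of these data known. A marker of another cell type is not reported here. Protein features were planned and not run, since protein sequences were not used here.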

Additional observations from a re-analysis of the deposited data

How the results depend on the processing

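Of 28 alternative settings, 24 planned and 4 chosen after seeing the data, 27 left the count within 1.5 times or the median within its 95% interval. Without RANBP2, whose span covers other genes, the summits assigned to members numbered 94 in place of 152. Members with a summit near an end numbered 29 with a window of 500 bp, where NUP35 was lost, and 29 at a −log10 q of at least 10, where NUP210L was lost. They numbered 27 within 300 bp of a start site. The median enrichment was 14.1 to 14.3 and the median pileup 1216 to 1272 over their alternatives. Transport genes with an end summit numbered 34 to 38. No paired analysis was possible because the pooled list carries no library, and for the same reason no replicate could be left out. Depth per library is unknown, so weak sites such as those of NUP210 and NUP210L rest on pileups of 36 to 78 fragments over all libraries, and the absence of a summit says only that none was listed.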

Other observations

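Of 11 pseudogenes named after pore genes, of NUP210, SEC13, NUP58, NUP50 and NUP35, SEC13P1 had a summit near an end (5.30-fold, 112 fragments), and the other 10 had no summit at all. The share, 9.09%, stands beside 11.6% of 17051 pseudogenes. Of the 5 parent genes, SEC13, NUP58 and NUP50 had enrichments of 13.5 to 17.7 at their start sites and NUP35 had 11.4, while NUP210, the parent of 3 of these pseudogenes, had no summit there.

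The RGPD genes are partial copies of RANBP2 on chromosome 2. The RefSeq windows of RGPD1, RGPD5, RGPD6 and RGPD8 were 41.8 to 55.7% identical to the RANBP2 window. By the same alignment, windows of NUP58 and NUP54 were 46.1% identical, and those of NUP210 and NUP210L 39.3 to 41.1%. The RGPD values alone therefore do not show that the start windows are copies. Summits at starts of RGPD5, RGPD6 and RGPD8 had enrichments of up to 11.3, 12.1 and 12.7, while RGPD1 had none listed within 1000 bp of its start. The RGPD5 summit of 11.3 lies in the listed span of RANBP2 and was also counted as an inside summit of RANBP2.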
